A study of Arabidopsis thaliana with 20 samples.

Results

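The UDP-glycosyltransferase (UGT) family of *A. thaliana* was followed in shoots of plants grown in closed Petri dishes and in dishes with active aeration. Members were the genes whose deposited description holds the words UDP-glucosyl transferase, UDP-glucosyltransferase or UDP-glycosyltransferase, without 2 genes that the selection leaves out. This gave 65 members among the 33296 genes of the table. The descriptions of 59 members carry a number of the UGT nomenclature, and 6 members are described as a superfamily protein only. The series holds 20 RNA-seq samples in 2 sets of sequencing, and the 8 samples of the first set are described here. Of these, 4 were non-aerated plants, in dishes sealed with Parafilm and only briefly opened on day 5 after sowing, and 4 were aerated plants, whose dish covers were exchanged on that day for ones with filters through which 0.15 to 0.25 L/min of air flowed. Both groups were wild-type Col-0 on Murashige-Skoog medium with 1% sucrose and 0.8% agar at 22 °C, were harvested 15 days after vernalization, and each sample pooled the shoots of 10 plants from 1 plate. The p values below measure the spread between these plates. Per the paper, the airflow was divided so that 1 flask could serve 4 dishes. Whether the aerated plates here shared a flask is not given, and spread between air supplies was not measured.

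Glycosyltransferases of this family move a sugar from a UDP-sugar, in most cases UDP-glucose, to small acceptors such as flavonoids, phenylpropanoids, hormones and foreign compounds. The sugar makes the acceptor more soluble, often inactive, and allows it to be stored in the vacuole, and beta-glucosidases can release it again. Plant members share a stretch near the C-terminus that binds the UDP-sugar, known as the plant secondary product glycosyltransferase (PSPG) signature, whereas the N-terminal part binds the acceptor and varies more. Names follow sequence likeness: the number gives the family, the letter the subfamily and the last number the gene.

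Values are read counts divided by the size factor of each library, called normalized counts. Libraries held 34330463 to 60255788 reads in non-aerated and 35666297 to 50631873 reads in aerated plants. Libraries carry the numbers of the table (NON2, NON4, NON6 and NON8, and AER1, AER3, AER5 and AER7), and values per library are given in that order. The log2 of the fold change (non-aerated over aerated) is given as log2FC, with its standard error (SE). A gene was tested when at least 4 libraries reached 10 normalized counts, and it was called when its Benjamini-Hochberg adjusted p value over all tested genes was under 0.05 with limma. The 6 shoot marker genes, for Rubisco, its activase, a light-harvesting protein and a carbonic anhydrase, summed to 1745560 to 2302260 normalized counts in non-aerated and 2019670 to 2679310 in aerated plants, with none at 0 and none called. The 6 root marker genes summed to 42.8 to 124.4 normalized counts in non-aerated and 92.5 to 296.6 in aerated plants, with none at 0 in every library. Of these, 4 were tested, none was called, and all 4 had log2FC values below 0 (median -1.31). The part of root tissue in the results below was not tested. The amount of RNA per cell and the number of cells of a type cannot be told apart in such pooled shoots.

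Of the 65 members, 45 were tested, 12 were above 0 but too low to be tested, and 8 were at 0 in every library. Among the tested members, 10 were higher and 5 were lower in non-aerated plants, and 30 were not called. The called share was 33.3% of the members, beside 22.4% of all 20160 genes tested, with 12.4% of all genes called higher and 10.0% called lower. No test of this difference in share was made. A change of at least 2-fold was reached by 3 of the higher and 1 of the lower members, beside 7.88% of all genes, 5.24% higher and 2.63% lower. Of the 3 higher members, UGT79B8 was low and met the limit for testing through its non-aerated libraries. The groups did not overlap in 17 tested members, 10 of them higher and 7 lower in non-aerated plants, beside 27.3% of all genes (14.3% higher and 13.0% lower). Of the tested members, 24 had log2FC values above 0 and 21 below, with a median of 0.06, beside -0.00235 over all genes tested. The family thus held changes in both directions around a median close to that of all genes. Summed over all 65 members, the 4 non-aerated libraries held 52952, 55375, 49068 and 46438 normalized counts, and the aerated libraries held 42276, 44408, 43167 and 43344. Every non-aerated sum was above every aerated sum. AT1G05675 alone gave 3755.1 of the normalized counts of NON8. Without this member, the sum of NON8 lay within the range of the aerated sums. The share of all normalized counts was 0.1023% to 0.1341% in non-aerated and 0.09179% to 0.1015% in aerated plants. With 1 library left out at a time, 5 to 10 members were called higher and 1 to 4 lower. The fewest calls remained without AER7 (5 higher and 1 lower), and the calls of AT1G05675, UGT73B3, UGT87A2, UGT72B1 and UGT85A5 held in all 8 of these fits.

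**Figure D1:**
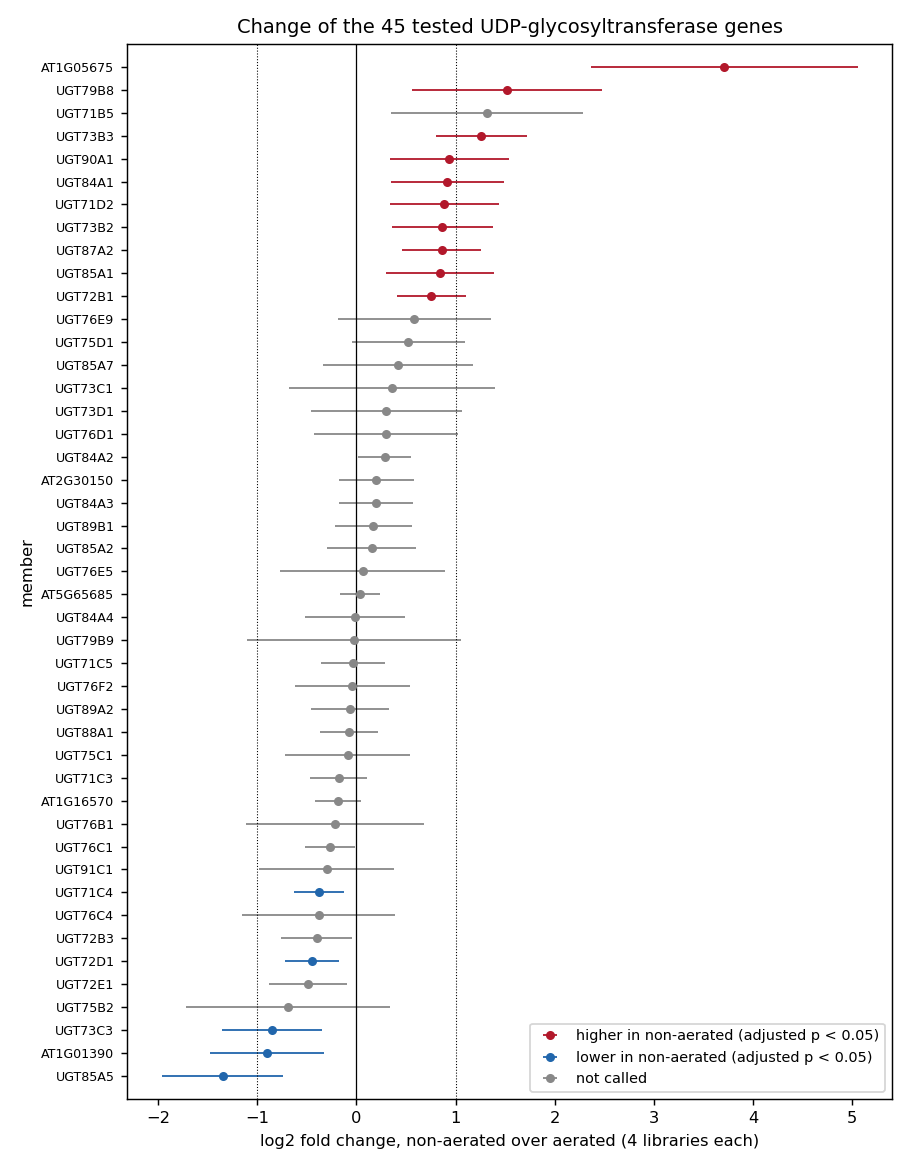
Log2FC (non-aerated over aerated, 4 libraries each) of the 45 tested members on the x axis, 1 member per row, with the 95% confidence interval from limma as a bar and dotted lines at a 2-fold change. AT1G05675 stands at 3.71 and UGT85A5 at -1.35, and 30 members were not called.

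The signature was searched in the coding sequence of each member as a block of 44 codons that starts with a tryptophan codon and holds, at codons 19 to 24, histidine, any residue, glycine, tryptophan or phenylalanine, any residue, and serine or threonine. It was found in 59 of the 65 members, and 58 of these end it with glutamine and 1 with histidine. In 41 members codons 19 to 24 read histidine, cysteine, glycine, tryptophan, asparagine, serine. It was not found in UGT79B8, UGT79B11, AT2G30150, AT3G46650, AT1G16570 and AT5G65685. The proteins with the block had 438 to 519 residues with a median of 470. The blocks of the 7 members around which the results turn are shown, 132 bases each in the TAIR10.1 build, with codons 19 to 24 in capitals. The first is that of AT1G05675, the second and the third are those of the neighbours UGT73B3 and UGT73B2, and the other 4 are from the UGT85A genes of a run on chromosome 1.
AT1G05675 (chr1:1701453-1701584, minus strand): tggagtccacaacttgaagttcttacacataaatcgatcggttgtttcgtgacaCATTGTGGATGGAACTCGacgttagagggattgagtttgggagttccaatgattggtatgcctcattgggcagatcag
UGT73B3 (chr4:16343523-16343654, minus strand): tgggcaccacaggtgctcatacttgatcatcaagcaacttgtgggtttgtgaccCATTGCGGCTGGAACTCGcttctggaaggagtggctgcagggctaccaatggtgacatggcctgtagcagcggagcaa
UGT73B2 (chr4:16345737-16345868, minus strand): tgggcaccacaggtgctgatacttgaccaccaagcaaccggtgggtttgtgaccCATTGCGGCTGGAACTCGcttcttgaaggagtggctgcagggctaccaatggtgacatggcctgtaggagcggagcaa
UGT85A7 (chr1:7890710-7890841, minus strand): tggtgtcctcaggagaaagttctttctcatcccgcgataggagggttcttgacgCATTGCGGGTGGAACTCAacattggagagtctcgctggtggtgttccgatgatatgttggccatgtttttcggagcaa
UGT85A2 (chr1:7895308-7895439, minus strand): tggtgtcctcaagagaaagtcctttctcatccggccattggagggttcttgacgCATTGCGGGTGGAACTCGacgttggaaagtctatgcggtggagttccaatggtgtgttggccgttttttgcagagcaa
UGT85A5 (chr1:7898356-7898487, minus strand): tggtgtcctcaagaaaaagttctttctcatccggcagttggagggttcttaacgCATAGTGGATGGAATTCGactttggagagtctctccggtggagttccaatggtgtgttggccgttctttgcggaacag
UGT85A1 (chr1:7904103-7904234, minus strand): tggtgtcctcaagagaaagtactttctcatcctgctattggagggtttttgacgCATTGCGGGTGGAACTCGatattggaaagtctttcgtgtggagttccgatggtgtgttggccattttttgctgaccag
UGT73B3 and UGT73B2 shared 125 of the 132 bases. Among the UGT85A genes, UGT85A2 and UGT85A1 shared 117 bases and UGT85A7 and UGT85A5 shared 107. Within codons 19 to 24 of the UGT85A genes, the only change of residue from UGT85A2 was C20S in UGT85A5, counted in codons from the start of the block. No other of the 59 members had serine there.

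The largest change of a member was that of AT1G05675 (chromosome 1, 1701116 to 1702749, minus strand, 2 exons), a member with no UGT number in its description. It had 449.7, 1345.7, 514.5 and 3755.1 normalized counts in non-aerated plants, against 69.7, 142.8, 55.4 and 68.8 in aerated plants. Every non-aerated library was above every aerated library, and NON8 was far above the other non-aerated libraries. The log2FC was 3.71 (SE 0.60, adjusted p = 0.0024, limma), a fold change of 13.1. With 1 library left out at a time it was between 3.09 and 4.11. None of its 100-base exon windows occurs a second time in the genome.

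UGT73B3 (AT4G34131, chromosome 4, 16343057 to 16344818) and UGT73B2 (AT4G34135, chromosome 4, 16345150 to 16347434) lie next to each other on the minus strand, and 88.8% of their coding bases are identical. Genes of the UGT73B subfamily are known to respond to oxidative stress and pathogens, and UGT73B3 and UGT73B5 take part in resistance to *Pseudomonas syringae*. UGT73B3 had 801.9, 1035.5, 625.0 and 574.9 normalized counts in non-aerated plants, against 327.6, 370.0, 230.7 and 321.6 in aerated plants, a log2FC of 1.26 (SE 0.21, adjusted p = 0.0024, limma). UGT73B2 had 1560.1, 2470.2, 1013.0 and 1479.7 normalized counts in non-aerated plants, against 843.3, 975.4, 731.8 and 863.2 in aerated plants, a log2FC of 0.87 (SE 0.23, adjusted p = 0.022, limma). The groups overlapped in neither gene, and NON4 was the highest library in both. The call of UGT73B2 ended without AER5 or AER7 (adjusted p = 0.055 to 0.064, limma). The 2 genes had no 100-base exon window in common with each other or with another place in the genome, but 15.0% of the exon bases of UGT73B3 lie in exons of other genes, and the counting did not use strand. Of the other genes of this subfamily, whose descriptions leave out the words of the selection, UGT73B5 had a log2FC of 1.47 (adjusted p = 0.0031) and UGT73B1 one of -1.01 (adjusted p = 0.00079), and UGT73B4 was listed at 0 in every library. The tested genes of the subfamily were thus 3 that were higher and 1 that was lower, all called, and UGT73B4 was not tested.

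The 250 bases before the start of UGT73B3 and UGT73B2, which rose together, and of UGT85A1, the most abundant member that was called, are shown in the 5′ to 3′ direction of each gene (TAIR10.1). Capitals mark TTGAC (the core of the W-box, bound by WRKY factors), TGACG (the core bound by TGA factors), CACGTG (the G-box) and CACATG or CATGTG (bound by MYC2-type factors), on either strand. TTGAC and TGACG can overlap, as in the last match of UGT73B3.
UGT73B3 (chr4:16344819-16345068, minus strand): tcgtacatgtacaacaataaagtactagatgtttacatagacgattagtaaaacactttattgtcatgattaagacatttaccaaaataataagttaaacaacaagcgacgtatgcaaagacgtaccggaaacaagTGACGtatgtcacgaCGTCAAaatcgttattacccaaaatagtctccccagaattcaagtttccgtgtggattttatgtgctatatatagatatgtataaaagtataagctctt
UGT73B2 (chr4:16347435-16347684, minus strand): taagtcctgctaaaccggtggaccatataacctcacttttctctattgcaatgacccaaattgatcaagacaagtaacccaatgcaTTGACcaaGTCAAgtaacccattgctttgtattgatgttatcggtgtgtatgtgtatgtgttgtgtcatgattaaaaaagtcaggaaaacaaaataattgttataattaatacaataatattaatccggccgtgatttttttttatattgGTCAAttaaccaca
UGT85A1 (chr1:7906970-7907219, minus strand): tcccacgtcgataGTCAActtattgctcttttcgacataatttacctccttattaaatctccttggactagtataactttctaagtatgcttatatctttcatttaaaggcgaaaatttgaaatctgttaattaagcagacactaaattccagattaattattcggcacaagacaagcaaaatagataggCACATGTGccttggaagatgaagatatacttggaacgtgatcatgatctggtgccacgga
In these windows, UGT73B3 held 1 TTGAC and 2 TGACG, and UGT73B2 held 3 TTGAC and no TGACG. UGT85A1 held 1 TTGAC and the palindrome CACATGTG, in which CACATG and CATGTG overlap. Over all members, TTGAC was found in 38 of 65 promoters (58.5%), beside 44.9% of the 27443 promoters of all protein-coding genes. TGACG was found in 15 members (23.1%), beside 18.6% of all. CACGTG was found in 4 members (6.15%), beside 6.49% of all, and none of these 4 is a called member. CACATG or CATGTG was found in 17 members (26.2%), beside 11.1% of all. Of the members called higher, 6 of 10 held TTGAC, 3 held TGACG and 1 held CACATG or CATGTG, and of those called lower, 4 of 5 held TTGAC, 1 held TGACG and 2 held CACATG or CATGTG. Neighbouring members share sequence, so these counts are not independent.

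The UGT85A members UGT85A7, UGT85A2, UGT85A5 and UGT85A1 lie in a run on the minus strand of chromosome 1, from 7890259 to 7906969, with between 76.2% and 81.5% of coding bases identical between pairs. The annotated pseudogene AT1G22350 lies between UGT85A7 and UGT85A2, and UGT85A3 (AT1G22380), which is no member, lies between UGT85A5 and UGT85A1. UGT85A1 (AT1G22400) glucosylates the cytokinin trans-zeatin, and UGT85A5 (AT1G22370) raised salt tolerance when it was expressed in tobacco. UGT85A5 had 397.7, 223.7, 538.9 and 627.6 normalized counts in non-aerated plants, against 970.1, 985.6, 1249.9 and 1069.5 in aerated plants. Every non-aerated library was below every aerated library, and the log2FC of -1.35 (SE 0.27, adjusted p = 0.0070, limma) was the only decrease of at least 2-fold among the called members. UGT85A1 had 5981.1, 8144.1, 6086.3 and 3186.2 normalized counts in non-aerated plants, against 2946.6, 3827.2, 2921.8 and 2779.6 in aerated plants. In UGT85A1, NON8 lay within the range of the aerated libraries and the other 3 non-aerated libraries lay above it. The log2FC was 0.84 (SE 0.25, adjusted p = 0.035, limma). The call ended without NON2, NON4, NON6, AER1, AER5 or AER7 (adjusted p = 0.073 to 0.093), and without NON8 the log2FC was 1.11 (adjusted p = 0.00091). UGT85A2 had 4442 ± 1239 normalized counts in non-aerated and 3868 ± 377 in aerated plants (SD, n = 4 each), a log2FC of 0.15 (adjusted p = 0.62, limma), which was called without NON8 (0.38, adjusted p = 0.033). UGT85A7 was low, with 43.7 ± 16.6 normalized counts in non-aerated and 31.7 ± 10.6 in aerated plants (SD, n = 4 each), and was not called (log2FC 0.42, adjusted p = 0.41, limma). The run thus held 1 gene that fell, 1 that rose and 2 that were not called. The 4 genes together summed to 11867, 12944, 11766 and 6551 normalized counts in non-aerated plants, against 7436, 9225, 8080 and 7608 in aerated plants, and NON8 had the lowest sum of all 8 libraries.

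**Figure D2:**
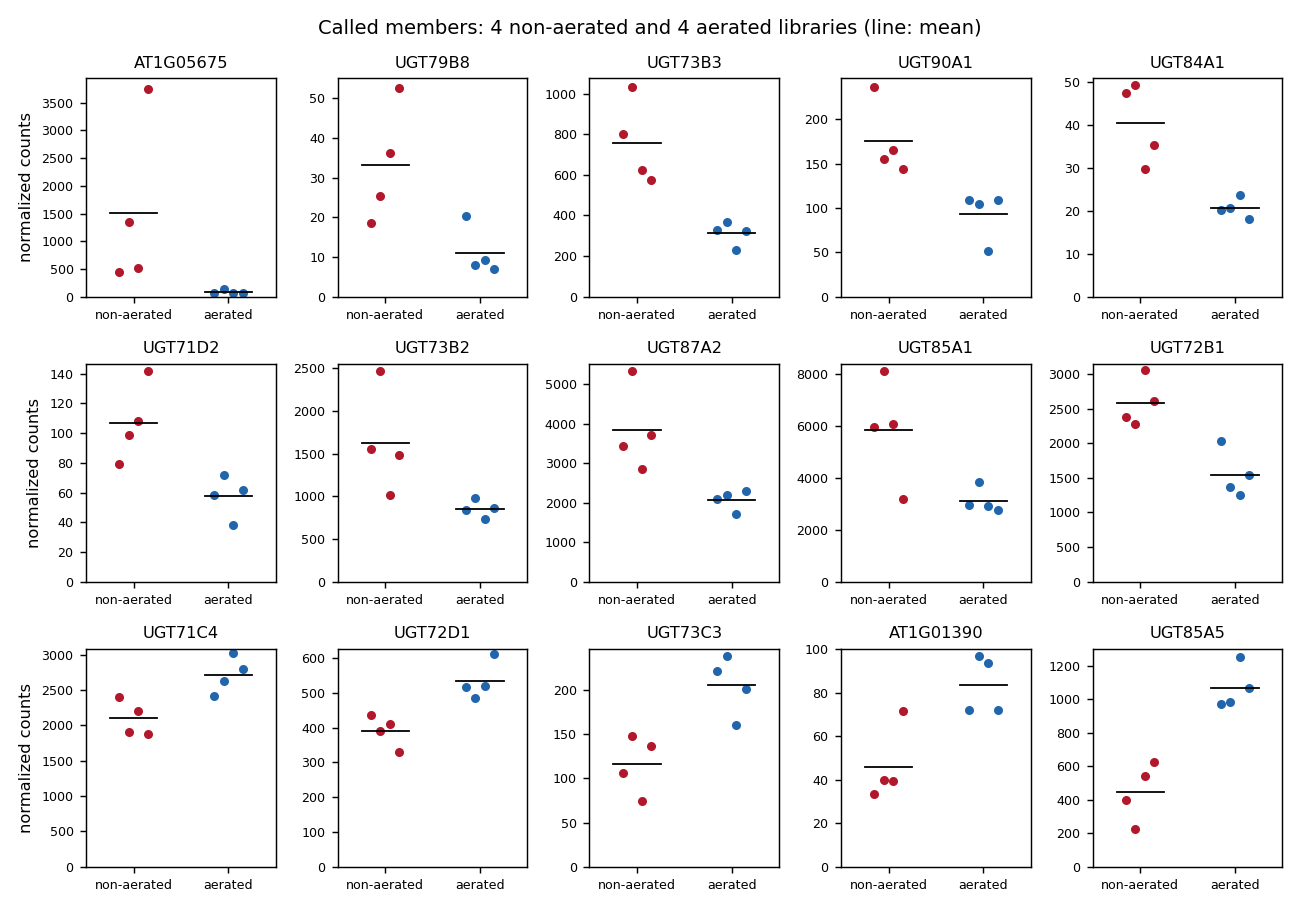
Normalized counts (y axis, starting at 0) of the 15 called members in the 4 non-aerated (left) and 4 aerated libraries (right), with the mean as a line. The groups overlap in UGT79B8 and UGT85A1, and the highest point of AT1G05675 is 3755.1 in a non-aerated library.

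Among members that glucosylate hydroxycinnamates or monolignols, the precursors of sinapate esters and lignin, 2 of 7 rose and none fell, a called share of 28.6%, beside 22.4% of all genes tested. UGT72B1 (AT4G01070, chromosome 4, 461513 to 463556), which acts on monolignols and on foreign chlorinated phenols and anilines, had 2373.1, 2274.2, 3061.2 and 2612.1 normalized counts in non-aerated plants, against 2026.8, 1361.4, 1253.9 and 1536.4 in aerated plants. The groups did not overlap, and the log2FC was 0.75 (SE 0.16, adjusted p = 0.0076, limma). UGT84A1, which forms glucose esters of hydroxycinnamates, was low, with 40.5 ± 9.4 normalized counts in non-aerated and 20.7 ± 2.3 in aerated plants (SD, n = 4 each). Its log2FC was 0.91 (adjusted p = 0.029, limma), and the call ended without NON2, NON4, AER1, AER3 or AER7 (adjusted p = 0.059 to 0.084). Its neighbours on chromosome 4, UGT84A3 and UGT84A4, had log2FC values of 0.20 (adjusted p = 0.43) and -0.01 (adjusted p = 0.97). UGT84A2, which makes sinapoylglucose for UV-protective sinapate esters, had 662 ± 100 normalized counts in non-aerated and 539 ± 26 in aerated plants (SD, n = 4 each), and its groups did not overlap, but it was not called (log2FC 0.29, adjusted p = 0.12, limma). UGT72E1, which acts on monolignol aldehydes, had a log2FC of -0.49 (adjusted p = 0.075, limma) and was called without NON4 (-0.60, adjusted p = 0.039). UGT72B3 had a log2FC of -0.40 (adjusted p = 0.10, limma). In both of these genes every non-aerated library was below every aerated library. The 7 members had a median log2FC of 0.20. With UGT72E2 (-0.43, adjusted p = 0.20) and UGT72E3 (-1.10, adjusted p = 0.13, limma), which are on the same list but are no members and were not called, the median of all 9 genes was -0.014.

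Of the 3 tested members that glucosylate cytokinins, UGT85A1 was called, as given above, and the other 2 were not, UGT76C1 with a log2FC of -0.27 (adjusted p = 0.13) and UGT73C1 with 0.36 (adjusted p = 0.62, limma). UGT73C1 had 193.2 normalized counts in AER1 and 35.4 to 47.3 in the other aerated libraries, and without AER1 its log2FC was 0.90 (adjusted p = 0.033). UGT75D1, which glucosylates indole-3-butyric acid, was the only 1 of 4 auxin members to be tested. It had 3275 ± 1209 normalized counts in non-aerated and 2199 ± 509 in aerated plants (SD, n = 4 each), a log2FC of 0.52 that was not called (95% confidence interval -0.05 to 1.10, adjusted p = 0.17, limma). UGT71C5, which glucosylates abscisate, had 2271 ± 300 normalized counts in non-aerated and 2337 ± 417 in aerated plants (SD, n = 4 each). Its log2FC of -0.03 had a 95% confidence interval of -0.35 to 0.29. Of the members for salicylate, other benzoates and related immune signals, 4 were tested and none was called. UGT76B1, which glucosylates isoleucic acid, salicylate and N-hydroxypipecolate, had a log2FC of -0.22 with a wide interval (-1.11 to 0.68). UGT71C3, which acts on methyl salicylate, had one of -0.18 (-0.47 to 0.11). UGT89A2 had one of -0.07 (-0.46 to 0.32) and UGT76D1 one of 0.30 (-0.43 to 1.03), and both glycosylate dihydroxybenzoates. UGT75C1, the anthocyanin 5-O-glucosyltransferase and the only flavonoid member to be tested, had a log2FC of -0.09 (-0.72 to 0.54). Of the exon bases of UGT75C1, 27.1% lie in exons of other genes, and the counting did not use strand. The same holds for 12.1% of those of UGT75D1 and 15.4% of those of AT5G65685.

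Of the members outside these lists, UGT87A2 (AT2G30140, chromosome 2, 12871984 to 12873866), which affects flowering time, was the most abundant that rose with groups that do not overlap. It had 3443.5, 5337.2, 2857.1 and 3718.9 normalized counts in non-aerated plants, against 2099.9, 2186.0, 1710.1 and 2292.1 in aerated plants, a log2FC of 0.86 (SE 0.18, adjusted p = 0.0076, limma). Its neighbour AT2G30150, with 80.1% of coding bases identical, had a log2FC of 0.20 (adjusted p = 0.43, limma). UGT90A1 rose with 236.9, 155.1, 165.8 and 143.9 normalized counts in non-aerated plants, against 109.2, 103.9, 51.4 and 109.2 in aerated plants (log2FC 0.94, adjusted p = 0.032, limma). The lowest aerated library, AER5, lay apart from the other 3. UGT71D2 was low and rose, with 79.0, 98.6, 108.4 and 141.6 normalized counts in non-aerated plants, against 58.0, 72.0, 38.2 and 61.9 in aerated plants (log2FC 0.89, adjusted p = 0.029, limma). The largest change after AT1G05675 among called members was that of UGT79B8, with 18.6, 25.3, 36.1 and 52.7 normalized counts in non-aerated plants, against 20.2, 8.0, 9.2 and 6.9 in aerated plants. Its groups overlapped through AER1, and its log2FC of 1.52 had a 95% confidence interval of 0.56 to 2.47 (adjusted p = 0.031, limma). UGT71B5 had a larger point value than UGT73B3, with 42.5 ± 22.9 normalized counts in non-aerated and 15.5 ± 5.3 in aerated plants (SD, n = 4 each), but was not called with limma (log2FC 1.32, adjusted p = 0.054). It was called with edgeR (adjusted p = 0.046), with DESeq2 (adjusted p = 0.014) and with limma without NON2 or NON8 (adjusted p = 0.037 to 0.044).

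The 4 called decreases beside UGT85A5 were smaller. AT1G01390, a member with no UGT number in its description, had 33.5, 39.7, 39.3 and 71.6 normalized counts in non-aerated plants, against 72.2, 97.1, 93.6 and 72.2 in aerated plants (log2FC -0.90, adjusted p = 0.032, limma). NON8 lay just under the lowest aerated libraries. UGT73C3 had 105.9, 147.9, 74.4 and 136.4 normalized counts in non-aerated plants, against 221.7, 238.7, 160.9 and 201.2 in aerated plants (log2FC -0.85, adjusted p = 0.024, limma). Of its 100-base exon windows, 5.81% occur at more than 1 place in the genome, so reads there cannot be assigned to this gene alone and its value is uncertain to that extent. UGT72D1 had 392 ± 44 normalized counts in non-aerated and 534 ± 55 in aerated plants (SD, n = 4 each), a log2FC of -0.45 (adjusted p = 0.027, limma). UGT71C4 had 2407.5, 1909.8, 2198.1 and 1879.8 normalized counts in non-aerated plants, against 2417.4, 2630.2, 3028.6 and 2802.8 in aerated plants, a log2FC of -0.38 (adjusted p = 0.036, limma), with NON2 just under AER1. Its neighbours UGT71C5 and UGT71C3 were not called.

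Several of these calls ended in fits without any of a number of different libraries, with adjusted p values not far above the limit. That of UGT90A1 ended without NON2, NON4, NON6 or AER3 (adjusted p = 0.050 to 0.084), and that of UGT71D2 ended without NON4, NON6, NON8, AER1, AER5 or AER7 (0.051 to 0.063). That of UGT79B8 ended without NON6, NON8, AER3, AER5 or AER7 (0.066 to 0.086). That of AT1G01390 ended without NON2, NON4, NON6, AER3, AER5 or AER7 (0.060 to 0.088), and that of UGT73C3 ended without NON2, AER1, AER3 or AER7 (0.057 to 0.069). That of UGT72D1 ended without NON4, AER1 or AER7 (0.052 to 0.090), and that of UGT71C4 ended without NON4, NON6, NON8, AER3, AER5 or AER7 (0.056 to 0.099). All of these are adjusted p values from limma, and the direction stayed as it was in each fit. These fits hold fewer samples. Without AER7, calls over all genes also fell, to 1697 higher and 1155 lower, beside 2490 and 2018 with all libraries.

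Levels of members were compared per kilobase of exon and ranked by the mean over all 8 libraries. The highest was UGT88A1, with 3156 ± 548 normalized counts per kb in non-aerated and 3289 ± 265 in aerated plants (SD, n = 4 each), and its log2FC of -0.07 had a 95% confidence interval of -0.37 to 0.22. Second in this order was UGT85A1, with 2891 ± 1006 per kb in non-aerated and 1542 ± 236 in aerated plants. UGT85A2 had 2288 ± 638 per kb in non-aerated and 1993 ± 194 in aerated plants, UGT87A2 had 2183 ± 603 per kb in non-aerated and 1178 ± 144 in aerated plants, and UGT75D1 had 1884 ± 695 per kb in non-aerated and 1265 ± 293 in aerated plants (SD, n = 4 each). In non-aerated plants each of these 5 members differed from the next in the order by less than the SD of either, and in aerated plants UGT88A1 stood above the other 4 by more than their SDs. In aerated plants the order was another one: UGT72E1, with 1812 ± 164 per kb, lay above UGT85A1, and UGT71C4, with 1470 ± 140 per kb, lay above UGT75D1 and UGT87A2 (SD, n = 4 each).

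**Figure D3:**
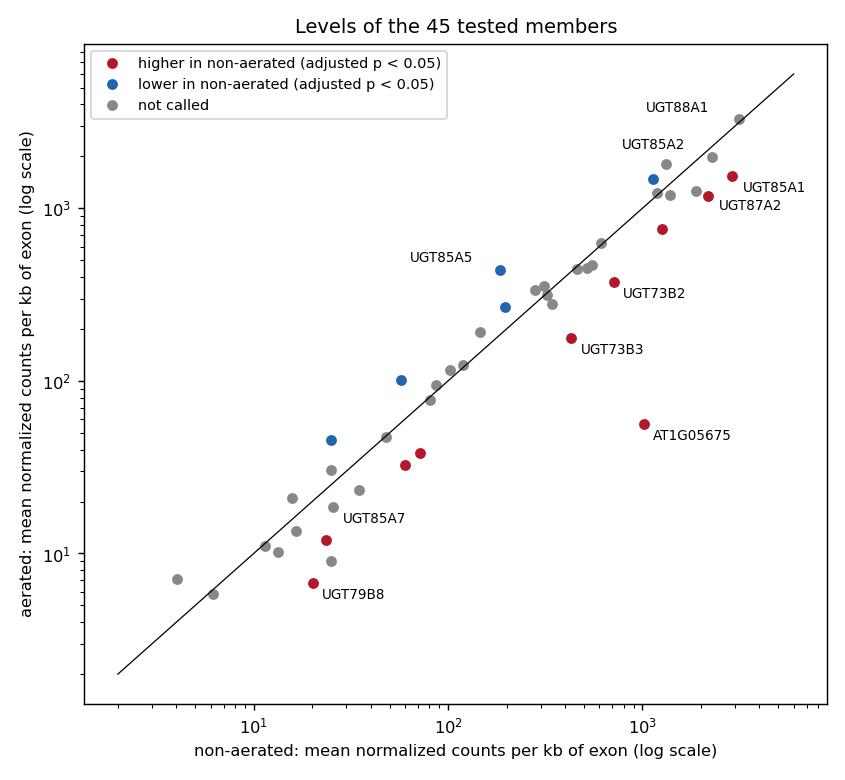
Mean normalized counts per kb of exon in non-aerated (x axis) and aerated plants (y axis), both on log scales, for the 45 tested members, with a line of equal levels. AT1G05675 lies farthest from the line, and UGT88A1 has the highest mean over both groups.

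The 30 members that were not called had log2FC values between -0.69 for UGT75B2 and 1.32 for UGT71B5. For 19 of them the whole 95% confidence interval lay within a 2-fold change, and for the other 11 it reached a 2-fold change in at least 1 direction. Not yet named among the 30 are UGT76C4 (-0.38), UGT91C1 (-0.30), AT1G16570 (-0.19), UGT76F2 (-0.04), UGT79B9 (-0.02), AT5G65685 (0.04), UGT76E5 (0.06), UGT89B1 (0.17), UGT73D1 (0.30) and UGT76E9 (0.58), given with their log2FC values. AT5G65685 had the smallest SE of the tested members (0.09), with 1037 ± 39 normalized counts in non-aerated and 1013 ± 75 in aerated plants (SD, n = 4 each). Of the 65 members, 60 have 1 or 2 exons and 5 have more, with 12 in AT5G65685 and 15 in AT1G16570. The signature was found in neither AT5G65685 nor AT1G16570, and both are members by their description only.

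The 12 members above 0 but not tested were UGT71B8, UGT76C3, UGT76E6, UGT78D4, UGT79B3, UGT79B4, UGT79B5, UGT79B10, UGT79B11, UGT83A1, UGT91A1 and AT3G46650. Their highest value in any library was 12.1 normalized counts. AT3G46650 had 7.4 to 10.2 normalized counts in non-aerated and 0 to 6.9 in aerated plants. The 8 members at 0 in every library were UGT71B6, UGT74D1, UGT75B1, UGT76E1, UGT79B6, UGT84B1, UGT84B2 and UGT85A4. In UGT71B6, UGT74D1, UGT75B1, UGT76E1 and UGT85A4 at least 80% of the exon bases lie in exons of another annotated gene. In UGT79B6, UGT84B1 and UGT84B2 no exon base does. Over all protein-coding genes, 589 of 704 with such an overlap of at least 80% were listed at 0 (83.7%), against 13.3% of the 19820 genes with no overlap. The deposited values of these 5 members therefore do not show whether they were expressed. They include genes for the glucosylation of auxin (UGT74D1), abscisate (UGT71B6) and jasmonate (UGT76E1).

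Other UGT genes with known roles have descriptions that leave out the words of the selection and are no members. Of 22 such genes on the lists, 17 were tested, 5 were higher and 4 were lower. The called share was 52.9%, beside 22.4% of all genes tested (12.4% higher and 10.0% lower), and this difference was not tested. The thiohydroximate S-glucosyltransferases of glucosinolate synthesis were both higher, UGT74B1 with 4776 ± 1111 normalized counts in non-aerated and 1834 ± 278 in aerated plants (SD, n = 4 each, log2FC 1.36, adjusted p = 0.00081, limma) and UGT74C1 with a log2FC of 0.74 (adjusted p = 0.014). UGT78D1, a flavonol 3-O-rhamnosyltransferase, had a log2FC of 0.58 (adjusted p = 0.025), and UGT79B2, which acts on anthocyanins, one of 0.97 (adjusted p = 0.0075, limma). UGT74F2, which forms the glucose ester of salicylate, was lower, with 4644 ± 570 normalized counts in non-aerated and 8604 ± 1100 in aerated plants (SD, n = 4 each, log2FC -0.89, adjusted p = 0.0010, limma). UGT76C2, which glucosylates cytokinins at ring nitrogens, had a log2FC of -0.54 (adjusted p = 0.016), and UGT80B1, a steryl glucosyltransferase, one of -0.28 (adjusted p = 0.037, limma).

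Of the 17 genes that supply UDP-sugars, all were tested, 3 were higher and none was lower, with a median log2FC of 0.28. The called share was 17.6%, all of it higher, beside 22.4% of all genes (12.4% higher and 10.0% lower), and this difference was not tested. Of the 17 genes, 14 had log2FC values above 0 and 3 below. UGD2, a UDP-glucose dehydrogenase that draws on UDP-glucose for UDP-glucuronate, had 11817 ± 2544 normalized counts in non-aerated and 5118 ± 529 in aerated plants (SD, n = 4 each, log2FC 1.19, adjusted p = 0.00097, limma). UGD1 had a log2FC of 0.58 (adjusted p = 0.028), and UGP2, a UDP-glucose pyrophosphorylase, one of 0.63 (adjusted p = 0.0043, limma). Beta-glucosidase genes were taken by the symbol BGLU and a number, so those filed under other symbols are left out. Of these 40 genes 25 were tested, 2 were higher and 3 were lower, with a median of 0.09. The called share was 20%, beside the same 22.4%. BGLU6, which adds a glucose to flavonol glucosides, had a log2FC of 1.45 (adjusted p = 0.0012), and BGLU40 one of 0.81 (adjusted p = 0.011, limma). BGLU21, a scopolin-cleaving enzyme of roots, had one of -2.76 (adjusted p = 0.014, limma). The summed root markers, given above, overlapped between the groups. All 4 tested root markers had log2FC values below 0, and among them LRX1 did not overlap. The part of root tissue in the value of BGLU21 was not tested. BGLU16 had a log2FC of -0.56 (adjusted p = 0.0066) and BGLU33 one of -0.34 (adjusted p = 0.040, limma). Genes of serine carboxypeptidase-like proteins, some of which pass acyl groups on from glucose esters, were likewise taken by the symbol SCPL and a number, with SNG1 added. Of these 15 genes, which are a part of the family, 12 were tested, 1 was higher and 5 were lower, with a median of -0.34. The called share was 50%, beside 22.4% of all genes, and this difference was not tested. SNG1, which uses sinapoylglucose to make sinapoylmalate, had a log2FC of 0.15 (adjusted p = 0.52, limma).

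**Figure D4:**
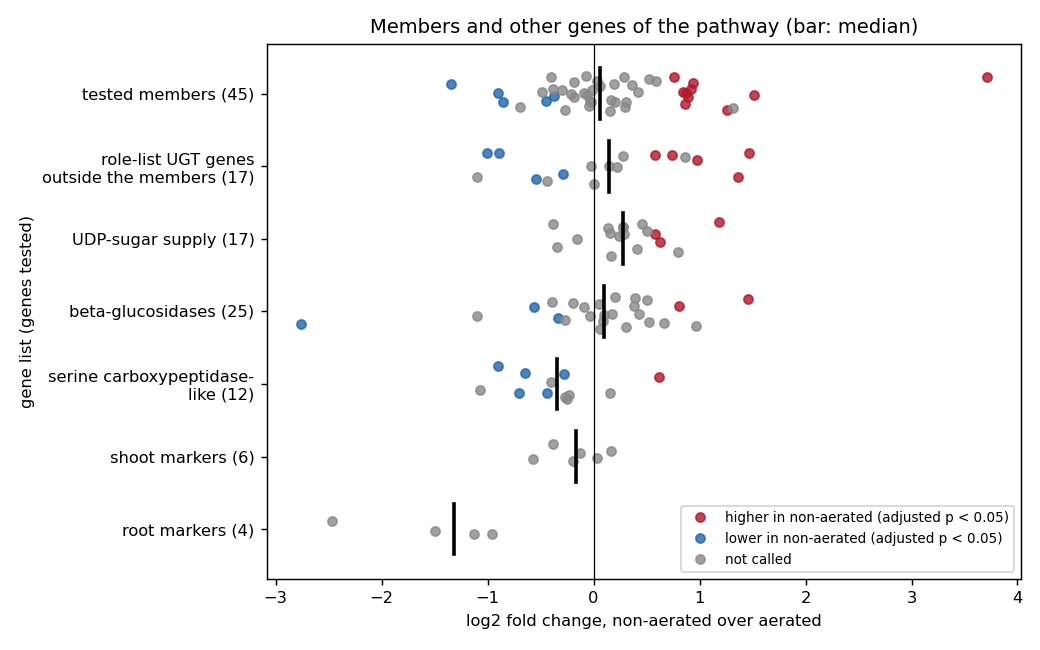
Log2FC (non-aerated over aerated) of each tested gene on the x axis, for the members and the other lists, with the number of genes tested in brackets and the median as a bar; vertical scatter within a list only separates the points. The medians are 0.06 for the members, 0.28 for UDP-sugar supply and -0.34 for the listed serine carboxypeptidase-like genes.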

How the data were processed

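Shoot RNA of 4 non-aerated and 4 aerated samples was sequenced (unstranded, single-end reads of 100 bases). Per the labels, alignment by the authors to TAIR10 used HISAT2 2.0.4, and counting used featureCounts 1.5.2 (on Araport11 genes). The deposited signal is each count over its DESeq2 size factor, rounded to 1 decimal. A table of the authors' own comparisons and the 12 samples of the second set were not analysed here. The members and lists were chosen with earlier results of these data known. Steps between low values gave back whole reads for 100% of the values (within 0.06 normalized counts).

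Differences were tested on log2(normalized count + 1) with limma 3.58.1 and a mean-variance trend (R 4.3.3). The 20160 genes tested reached 10 normalized counts in 4 or more libraries (3 or more where a library was left out). Fold changes of low genes are understated on this scale. Fold changes are non-aerated over aerated. The recovered reads were also tested with edgeR 4.0.16 (quasi-likelihood, TMM; 2523 genes higher and 2095 lower) and DESeq2 1.42.0 (3137 and 2532). Other alternatives were TMM factors or library totals before limma, pseudocounts of 0.5 and 10, no filter, no trend, a 2-fold limit and leaving out each library. The scripts were tested on simulated data. Named are all members with a 2-fold called change, members of the role lists, the 5 most abundant per kb and their tandem neighbours; the other called members and UGT71B5 were named after their values were seen, as were those among the other lists. Sequences and coordinates are from RefSeq TAIR10.1. Exon windows of 100 bases were placed with bwa 0.7.19.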

Additional observations from a re-analysis of the deposited data

Results flagged for a closer look

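In 10 of the 90 groups of 4 libraries examined (45 members in each treatment), the highest or lowest library lay far from the other 3. Chance gives such a gap in about 1 of 20 groups. The library was AER1 in 4 of them and AER3 in 3. In aerated plants, AER3 was the highest for UGT85A1 (3827.2 normalized counts, others 2779.6 to 2946.6) and AT1G05675 (142.8, others 55.4 to 69.7) and the lowest for UGT84A2 (500.2, others 551.1 to 553.5). AER1 was the highest for UGT73C1 (193.2, others 35.4 to 47.3), AT2G30150 (1034.0, others 754.2 to 795.3) and UGT76E9 (65.5, others 27.7 to 33.1) and the lowest for UGT89A2 (961.7, others 1239.2 to 1275.9). AER5 was the lowest for UGT90A1 (51.4, others 103.9 to 109.2). In non-aerated plants, NON4 was the lowest for UGT72B3 (192.4, others 285.9 to 290.8) and NON8 the highest for AT1G01390 (71.6, others 33.5 to 39.7). Of the 10 values, that of UGT73C1 changed a call when its library was left out (log2FC 0.90, adjusted p = 0.033 with limma).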

How the results depend on the processing

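With edgeR, DESeq2, TMM factors, library totals, other pseudocounts and no filter, all 15 called members were called again, and without the mean-variance trend 13 were (UGT71C4 and UGT85A1 were lost). No log2 fold change of a called member changed sign in any alternative. With each library left out in turn, 5 to 10 members were higher and 1 to 4 lower, and 6 to 12 of the 15 called members remained, the fewest without AER7. Over all genes 1155 to 2327 were then lower, with 1155 without AER7, beside 2018 with all libraries; these fits hold fewer samples. With a limit of 2-fold, 3 members were higher and 1 lower, and over all genes 1057 and 531. No paired analysis was possible because the columns carry library numbers, which only their order could tie to the replicate numbers of the labels, and nothing shows that such pairs share a batch or day. Standard errors above 0.4 on the log2 scale were found for AT1G05675, UGT71B5, UGT73C1, UGT75B2, UGT76B1, UGT79B8 and UGT79B9, so that changes of these members were measured with less precision.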
